A study of Mus musculus with 16 samples.

Results

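The genes described here are 10 genes of the blood vessel wall and its growth: Pecam1, Cdh5, Kdr, Flt1, Tek, Vegfa, Vwf, Eng, Egfl7 and Esam. They were picked by gene symbol, with earlier results of these data known, and are 10 of the 55471 genes in the deposited count table. Each was present in all 16 libraries and all 10 passed the filter on low counts, which left 14331 genes tested. The libraries are poly-A mRNA-seq of skeletal muscle (the labels do not say which muscle), 1 library per male mouse, from 10 mice labelled heterozygous (Npr1+/-) and 6 littermates labelled wildtype (Npr1+/+). The question was whether carrying a single intact copy of Npr1, which encodes GCA, the receptor for atrial natriuretic peptide, alters muscle gene expression. The targeted allele, B6.129-Npr1tm1Gar/J, is carried in every cell of the body and had been crossed onto C57BL/6J for at least 10 generations. All mice, wildtype included, entered the protocol at 12 weeks of age and were then given a high-fat diet with 60% of its kcal from lipids for 12 weeks. They were housed in 4 cages, and mice labelled heterozygous weighed 36.5 to 48.1 g against 40.5 to 54 g in mice labelled wildtype.

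Endothelial cells line every blood vessel. They hold together through adhesion proteins at their junctions, and they receive growth signals through receptor tyrosine kinases at their surface. VEGFA released by muscle fibers and other cells acts on KDR (VEGFR2), the main signaling receptor, while FLT1 (VEGFR1) binds VEGFA tightly and limits what reaches KDR. In muscle these cells form the capillaries that deliver glucose, oxygen and insulin to the fibers. In RNA of whole muscle, fewer endothelial cells and less RNA per endothelial cell cannot be told apart.

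The library checks came first. Npr1 stood at 9.83 to 22.2 CPM (counts scaled to the size of the library) in the 10 libraries labelled heterozygous and at 10.4 to 13.4 CPM in the 6 labelled wildtype, and the fitted log2 difference was 0.09 with an SE of 0.20 (95% interval -0.33 to 0.51). Npr1 mRNA was not found to be lower in the libraries labelled heterozygous, and its highest values were in heterozygous mice 6 (22.2 CPM) and 7 (17.6 CPM). Counts are summed over the whole gene. Whether they include transcript from the targeted allele, or whether a label is wrong, was not tested and cannot be told apart here. The genotypes are used below as labelled. Total counts ranged from 15273472 to 59682677 per library. Across genes, the libraries labelled heterozygous 6 and 7 stood apart from the rest in how their counts depended on gene length: their length slope, the log2 change relative to the mean library per doubling of gene length, was 0.29 and 0.35, against -0.22 to 0.19 in the other 14 libraries. The members' results for genotype label, body weight and correlation are given with and without these 2 libraries, and also after a correction of every library for gene length and GC content. The tissue label was checked against genes of the fast fibers, all 10 of which passed the filter, among them skeletal actin Acta1 with a mean of 28936 CPM and muscle creatine kinase Ckm with 25469 CPM. The presence of endothelial RNA was read from 30 other endothelial genes, all past the filter, among them Cav1, a caveolar coat gene shared with other cells, with a mean of 240 CPM, and Robo4, a receptor largely confined to endothelium, with a mean of 15.2 CPM.

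Stretches of promoter are shown for 4 members, Kdr and Flt1 because their levels moved together closely, and Eng and Egfl7 because their levels moved in opposite directions (values are given with the correlations). The RefSeq table (GRCm38.p6) held starts for 6 of the 10 members. Each stretch holds the 220 bases from 250 to 31 before the start, read 5′ to 3′ on the strand of the gene, and capitals mark GGAA and its reverse complement TTCC, the core of the sites bound by ETS factors, a family that includes the endothelial regulators ERG and FLI1. The positions are chr5:75978486-75978705 on the minus strand for Kdr, chr5:147726042-147726261 on the minus strand for Flt1, chr2:32646345-32646564 on the plus strand for Eng, and chr2:26580833-26581052 on the plus strand for the most upstream of the 3 starts of Egfl7.
Kdr: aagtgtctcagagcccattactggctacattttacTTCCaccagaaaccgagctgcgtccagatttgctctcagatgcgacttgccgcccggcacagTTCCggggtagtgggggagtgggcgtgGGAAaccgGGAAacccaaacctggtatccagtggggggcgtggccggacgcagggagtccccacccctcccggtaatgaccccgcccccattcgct
Flt1: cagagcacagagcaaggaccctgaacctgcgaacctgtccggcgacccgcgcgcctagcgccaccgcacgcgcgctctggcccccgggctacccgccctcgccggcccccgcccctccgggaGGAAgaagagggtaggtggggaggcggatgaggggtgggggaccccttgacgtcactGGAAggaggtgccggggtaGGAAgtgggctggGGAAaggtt
Eng: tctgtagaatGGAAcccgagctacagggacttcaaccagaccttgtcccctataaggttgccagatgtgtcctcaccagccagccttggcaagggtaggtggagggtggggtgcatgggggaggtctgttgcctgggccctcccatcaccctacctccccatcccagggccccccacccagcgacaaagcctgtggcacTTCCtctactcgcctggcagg
Egfl7: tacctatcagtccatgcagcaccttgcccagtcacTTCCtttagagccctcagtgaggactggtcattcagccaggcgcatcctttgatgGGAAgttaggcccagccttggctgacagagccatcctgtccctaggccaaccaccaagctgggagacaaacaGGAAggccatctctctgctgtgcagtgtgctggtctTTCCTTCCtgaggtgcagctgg

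GGAA in either orientation occurred 4 times in the Kdr stretch, 4 times in that of Flt1, 2 times in that of Eng and 5 times in that of Egfl7. It was present in 91.1% of all 32851 stretches of this length in the table, with a median of 2 matches, so its presence does not set these genes apart. GGGCGG, the GC box, searched on both strands, occurred 2 times each in the stretches of Kdr and Flt1 and in neither of the others shown, against 28.5% of all stretches with at least 1 match. The starts of Egfl7 that are not shown held 3 and 1 matches of GGAA and 0 and 1 of GGGCGG. The Egfl7 counts thus depend on the start shown. TATAAA, searched on both strands, was not in any of the 4 stretches and was in 9.95% of all. These matches describe letters only.

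Egfl7 is also the host of the endothelial microRNA miR-126, shown here since Egfl7 was the member that ran against the others. Its mature 3′ arm lies at chr2:26591402-26591423 on the plus strand (GRCm38.p6), in an intron of 8 of the 9 annotated Egfl7 transcripts that span it, and its seed (bases 2 to 8) is in capitals.
mmu-miR-126a-3p: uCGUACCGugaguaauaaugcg
The row for Mir126a held 0 counts in all 16 libraries, which were made from poly-A RNA, so the Egfl7 values below do not measure the microRNA. The row for Gm20532 (chr2:26586639-26635634), which overlaps Egfl7 on the same strand, also held 0 counts. How reads that fit both genes were counted is not given in the sources used here, so Egfl7 reads from the overlap are uncertain.

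Among the junction and adhesion genes, Pecam1 (chr11:106654217-106750628), whose product CD31 joins endothelial cells, ranged in the libraries labelled heterozygous from 29.7 CPM over a median of 71.6 to 124 CPM, and in those labelled wildtype from 57.1 over 61.5 to 79.5 CPM. The groups overlapped, with 4 heterozygous libraries above and 3 below the wildtype range. Cdh5 (chr8:104101625-104144511), which encodes VE-cadherin, the adhesion protein of endothelial junctions, ranged from 41.6 over 68.1 to 167 CPM in the heterozygous libraries and from 50.8 over 56.9 to 70.2 CPM in the wildtype ones. Heterozygous mice 6 and 7 were the 2 highest, at 167 and 164 CPM, and 5 heterozygous libraries lay above and 3 below the wildtype range. Esam (chr9:37528078-37537547), an adhesion molecule of tight junctions and also of platelets, was less variable, with 20.5, 29.7 and 41.8 CPM as lowest, median and highest in the heterozygous group and 24.7, 29.6 and 37.7 CPM in the wildtype group. Here 7 of the 10 heterozygous libraries fell within the wildtype range.

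Of the receptors, Kdr and Flt1 varied more between heterozygous mice than Tek and Eng. Kdr (chr5:75932827-75978458) ranged from 11.7 over 25.3 to 104 CPM in the heterozygous libraries, an 8.84-fold span, and from 19.2 over 22.9 to 29.4 CPM in the wildtype ones, a 1.53-fold span. Only 1 heterozygous library lay within the wildtype range, with 5 above it and 4 below. Flt1 (chr5:147561604-147726011) showed the same layout, with 18.1, 33.7 and 132 CPM as lowest, median and highest in the heterozygous group and 24.5, 28.5 and 30.9 CPM in the wildtype group. The same 5 heterozygous mice, numbers 2, 3, 5, 6 and 7, were above the wildtype range for Kdr, for Flt1 and for Cdh5. Tek (chr4:94739289-94874976), the angiopoietin receptor TIE2 that keeps vessels quiescent, ranged from 12.6 over 23.2 to 36.6 CPM against 14.3 over 22.2 to 25.0 CPM. Eng (chr2:32646595-32682658), which encodes endoglin, a co-receptor for BMP9 and BMP10 on endothelium, ranged from 26.1 over 40.7 to 81.7 CPM against 20.5 over 32.1 to 39.9 CPM. For Eng, 5 heterozygous libraries were above the wildtype range and 0 below it. The 3′ end of Eng overlaps Fpgs (chr2:32682609-32704137) on the opposite strand in a short stretch. Fpgs had 19.5% as many counts as Eng over its whole length. Since the strand setting of the counting is not given in the sources used here, reads from the overlap are uncertain.

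Of the secreted factors, Vwf (chr6:125546774-125686679), which encodes von Willebrand factor, the endothelial store of a platelet-binding protein, was the least abundant. It ranged from 4.70 over 12.6 to 50.9 CPM in the heterozygous libraries and from 6.56 over 7.90 to 9.21 CPM in the wildtype ones. Heterozygous mice 6 and 7 were highest, at 42.9 and 50.9 CPM, the next being mouse 5 at 17.9 CPM, and 7 heterozygous libraries lay above the wildtype range. Vegfa (chr17:46016993-46031815), the ligand, ranged from 193 over 264 to 352 CPM against 225 over 269 to 281 CPM, and its highest value was in heterozygous mouse 8, which was lowest for Vwf and Flt1. Egfl7 (chr2:26580014-26592684), a matrix-bound factor made by endothelium, ranged from 72.0 over 96.4 to 169 CPM against 79.2 over 104 to 146 CPM. Its order ran the other way: heterozygous mouse 7, highest for Pecam1, Kdr, Flt1, Tek, Vwf and Eng, was lowest for Egfl7, and heterozygous mouse 9, lowest of the heterozygous mice for Pecam1, Eng and Esam, was highest.

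**Figure D1:**
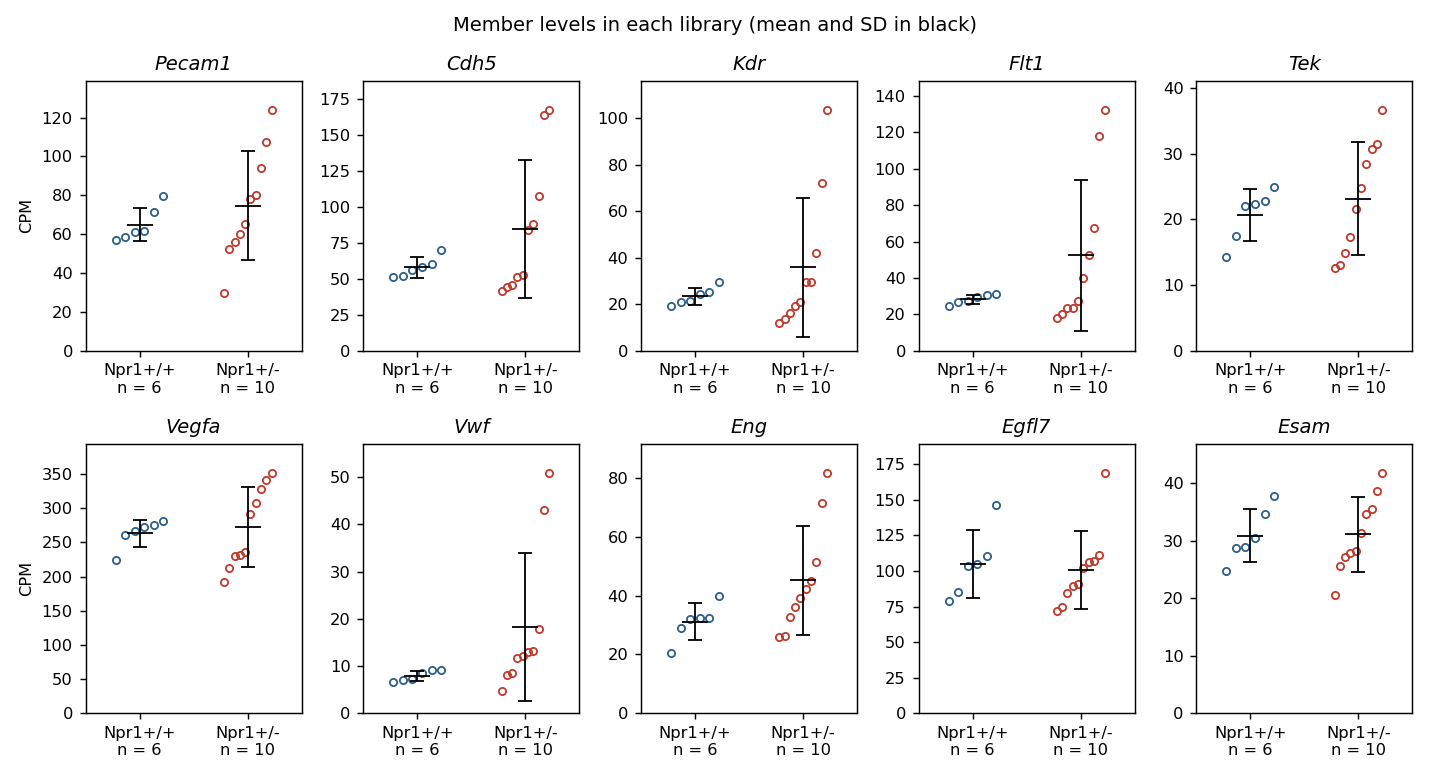
CPM of each member (vertical axis, from 0) in each library, with the 6 libraries labelled wildtype (Npr1+/+) in blue and the 10 labelled heterozygous (Npr1+/-) in red, and the mean with its SD in black. The wildtype libraries sit close together, while the heterozygous ones spread to both sides of them for Cdh5, Kdr and Flt1, with 2 libraries far above the rest for Vwf (42.9 and 50.9 CPM).

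No member passed the test for the genotype label. In the fit with cage and body weight (quasi-likelihood F test of edgeR, p-values adjusted over all genes by Benjamini and Hochberg), 0 of 10 members passed an adjusted p of 0.05, as did 0 of all 14331 genes tested (0%), and 0 of 10 passed an unadjusted p of 0.05, against 1.05% of all genes (151 genes). By DESeq2, 6 of all genes and 0 members passed the adjusted threshold. For 0 of 10 members did the 2 groups of libraries fail to overlap, as for 0.00698% of all genes. The log2 difference, heterozygous minus wildtype, was above 0 for 9 of 10 members, against 48.4% of all genes, and its median was 0.14 over the members and -0.01 over all genes. The members share libraries and moved together, so these 9 are not 9 separate observations.

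Vwf had the highest difference of the members, a log2 value of 0.63 (SE 0.46, 95% interval -0.34 to 1.6, adjusted p = 1.0 by edgeR's quasi-likelihood test), with means of 18.3 ± 15.6 CPM (SD, n = 10) and 7.93 ± 1.14 CPM (SD, n = 6). Flt1 differed by 0.28 (SE 0.36, interval -0.48 to 1.05), between 52.3 ± 41.6 CPM and 28.3 ± 2.52 CPM, and Cdh5 by 0.26 (SE 0.29, interval -0.35 to 0.87), between 84.5 ± 48.1 CPM and 57.8 ± 7.08 CPM. Eng differed by 0.19 (SE 0.25) and Tek by 0.18 (SE 0.25). Egfl7 at 0.10 (SE 0.20), Kdr at 0.06 (SE 0.37), Pecam1 at 0.05 (SE 0.25), Esam at 0.03 (SE 0.17) and Vegfa at -0.01 (SE 0.18) lay close to 0. The intervals set what these libraries could show: that of Vegfa ran from -0.39 to 0.37 and that of Esam from -0.33 to 0.39, whereas that of Kdr ran from -0.73 to 0.85. The signs of the small differences did not hold. That of Vegfa was above 0 under scaling by DESeq2's size factors, Pecam1, Kdr, Flt1 and Esam were below 0 without heterozygous mouse 6, and Pecam1, Kdr, Flt1 and Tek were below 0 without wildtype mouse 4.

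The values moved with the covariates. Mice labelled heterozygous weighed 43.6 ± 3.79 g (SD, n = 10) and mice labelled wildtype 47.4 ± 4.69 g (SD, n = 6). With the genotype label alone and no covariate, the log2 difference was 1.21 for Vwf (SE 0.42), 0.89 for Flt1 (SE 0.41), 0.61 for Kdr (SE 0.40), 0.55 for Cdh5 (SE 0.30) and 0.54 for Eng (SE 0.23), each with an adjusted p of 0.999 by edgeR's quasi-likelihood test. In that fit 3 members, Flt1, Vwf and Eng, had an unadjusted p under 0.05, against 3.8% of all genes. With cage as the only covariate there were 4, Cdh5 added to these, against 4.05%. With cage replaced by a block for shared replicate numbers there were 2, Vwf and Eng, against 9.03%, and in each of these fits 0 of 10 passed the adjusted threshold. In the block fit heterozygous mice 7 to 10, whose numbers no wildtype mouse shares, add nothing to the estimates. Within cages, each with 3 to 5 mice, Vwf was higher in heterozygous than in wildtype mice by a log2 value of 1.42, 1.36 and 1.20 in cages 675, 677 and 678 and lower, at -0.23, in cage 676. Cdh5, Kdr, Flt1, Tek, Vwf and Eng all had this layout, above 0 in 3 cages and below 0 in cage 676. Egfl7 was above 0 in 2 of 4 cages. With the correction for gene length and GC content, the difference of Vwf was 0.57 (SE 0.30) and the median of the members 0.16, and 0 of 10 members passed the adjusted threshold (0% of all genes). Without heterozygous mice 6 and 7 the difference of Vwf was 0.53 (SE 0.29), the median was 0.11, and 0 of 10 members passed (0.0141% of all genes, 2 genes). Single mice moved the difference of Vwf further. It was 0.25 without heterozygous mouse 6, 0.28 without wildtype mouse 4 and 1.09 without wildtype mouse 5, and the median of the members was 0.0067, -0.0072 and 0.37 in these fits. Without heterozygous mouse 7 it was 0.85, and Vwf was then the 1 member with an unadjusted p under 0.05, against 2% of all genes.

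**Figure D2:**
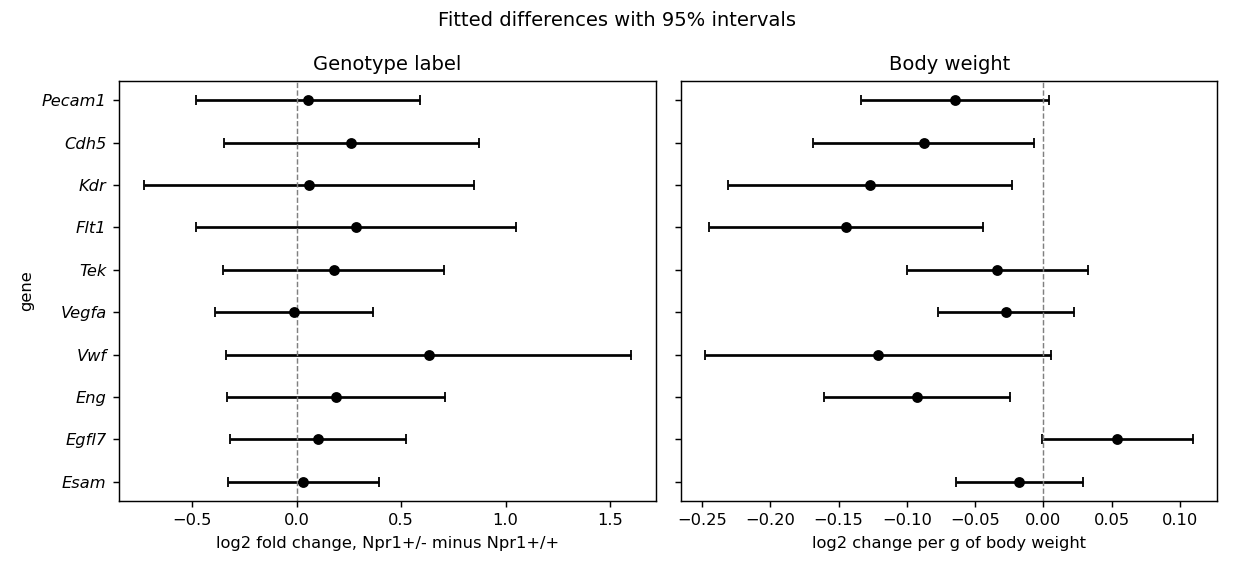
Fitted log2 difference between genotype labels (left) and fitted log2 change per g of body weight (right) for each member, as points with 95% intervals (horizontal axes) and 0 as a dashed line. All 10 intervals for the genotype label include 0, and those of Cdh5, Kdr, Flt1 and Eng for body weight lie below it.

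The heterozygous libraries had the wider spread. The SD of log2 CPM was larger among heterozygous than among wildtype libraries for 10 of 10 members, against 80.2% of all genes, and the median ratio of the SDs was 2.94 over the members and 1.53 over all genes. Flt1 had the highest ratio, 8.01 (SD 1.05 against 0.13), followed by Vwf at 5.06, Kdr at 4.64 and Cdh5 at 4.53, while Egfl7 stood at 1.13. After correction for length and GC content the median ratio of the members was 2.16 against 1.44 over all genes. Without heterozygous mice 6 and 7 it was 2.64 against 1.37. No test was made of this spread, and most genes shared its direction.

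With genotype label and cage held constant, 4 of 10 members were lower in heavier mice at an unadjusted p of 0.05, against 12.3% of all genes, and 0 of 10 passed the adjusted threshold, as did 0% of all genes. Flt1 changed by -0.14 on the log2 scale per g (SE 0.05), Kdr by -0.13 (SE 0.05), Eng by -0.09 (SE 0.03) and Cdh5 by -0.09 (SE 0.04), with adjusted p from 0.245 to 0.268 by edgeR's quasi-likelihood test. Egfl7 was the only member with a slope above 0, 0.05 per g (SE 0.03), a sign found in 47.3% of all genes. Single mice decided these counts. Without heterozygous mouse 7, 0 of 10 members were lower at an unadjusted p of 0.05 (4.9% of all genes), and the slopes were -0.07 for Flt1, -0.06 for Eng and -0.04 for both Kdr and Cdh5. With body weight as the only covariate beside the genotype label the count was also 0 of 10 (5.17% of all genes), as it was with the replicate block in place of cage (0.391%). In the block fit heterozygous mice 7 to 10, whose numbers no other mouse shares, add nothing to the slopes. Without heterozygous mouse 3, 3158 genes (22.1%) and 6 of the 10 members passed the adjusted threshold by the same test: Flt1 at -0.21 (adjusted p = 0.00472), Kdr at -0.19 (0.00654), Eng at -0.14 (0.00735), Cdh5 at -0.14 (0.0136), Vwf at -0.19 (0.0182) and Pecam1 at -0.10 (0.0425). Without heterozygous mice 6 and 7, 1 of 10 members, Flt1, was lower at an unadjusted p of 0.05 (-0.07 per g), against 5.25% of all genes, and mouse 7, at 36.5 g, was the lightest of all. With the correction for length and GC content, 2 members, Flt1 (-0.07) and Eng (-0.06), were lower at an unadjusted p of 0.05 (8.88% of all genes) and 1, Egfl7 (0.08), was higher (6.29% of all genes), and 0 members passed the adjusted threshold.

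Cage, tested over its 4 levels with genotype label and body weight held constant, gave 3 of 10 members with an unadjusted p under 0.05 (Flt1, Kdr and Cdh5), against 7.36% of all genes. Their adjusted p was 0.656 by edgeR's quasi-likelihood test, and 0 members passed, against 4 of all genes (0.0279%). Single mice decided the unadjusted count, which was 0 without heterozygous mouse 6 (3.19% of all genes), 5 without mouse 7 (13.5%) and 7 without mouse 3 (28.7%), 1 without mouse 1 or mouse 10, and 3 or 4 without any of the others. With cage as the only covariate beside the genotype label it was 0 of 10 (4.26%). The 4 mice of cage 676 had low values of Flt1, between 18.1 and 26.7 CPM, while cage 678, which held mouse 7, spanned 23.3 to 132 CPM. Not all members were lowest in cage 676. Its mean was 276 CPM for Vegfa against 256 CPM in cage 678, 36.1 for Eng against 34.6 in cage 677, and 98.1 for Egfl7 against 91.4 in cage 675.

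By r of log2 CPM with no covariate, the members moved together across the 16 mice, apart from Vegfa and Egfl7. Of the 45 pairs of members, 30 passed a Benjamini-Hochberg adjusted p of 0.05 over the 45 pairs (permutation test of Pearson's r of log2 CPM, two-sided, 100000 resamples), 26 with r above 0 and 4 below. The 28 pairs among the 8 other members all had r above 0, with a median of 0.776 and a range of 0.48 to 0.966, and 25 of them passed. Cdh5 and Flt1 had the highest r, 0.966 (Spearman's rho 0.882, permutation p = 1e-05, the smallest the resamples can give, adjusted p = 7.5e-05), and without the 2 mice farthest from the median of Cdh5 it was 0.905. Cdh5 with Kdr had r = 0.960 (rho 0.929), Kdr with Flt1 r = 0.957 (rho 0.965), the receptors that share VEGFA, and Pecam1 with Esam r = 0.901 (rho 0.879). Vegfa, the ligand, passed with 1 of its 9 partners, Pecam1 (r = 0.556, rho 0.468), and that r fell to 0.329 without the 2 farthest mice. With its receptors, Vegfa had r = 0.503 for Kdr and 0.425 for Flt1, neither past the threshold. These depended on the setting. In residuals after genotype label, cage and body weight, r was 0.672 for Kdr and 0.492 for Flt1. There Vegfa also had r = 0.625 with Cdh5 and 0.588 with Tek, but 0.507 with Pecam1 and 0.328 with Eng. After the correction for length and GC content, r was 0.252 for Kdr and 0.0266 for Flt1. The standing apart of Vegfa thus describes r with no covariate.

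Egfl7 had r below 0 with all 9 other members, and 4 of these pairs passed: with Eng at -0.762 (rho -0.841, adjusted permutation p = 0.00251), Pecam1 at -0.659, Cdh5 at -0.558 and Flt1 at -0.554. The pair of Eng and Egfl7 was the one whose r stayed below -0.7 in each setting given here: it was -0.802 after the correction for length and GC content, -0.818 without heterozygous mice 6 and 7, -0.744 in residuals after genotype label, cage and body weight, -0.80 in the 10 heterozygous mice and -0.880 in the 6 wildtype mice, where no pair passed. The pattern of Egfl7 against the other members was not seen in the wildtype mice as a whole: 5 of its 9 pairs had r above 0 there, with Pecam1 at 0.707 against -0.915 in the heterozygous mice and Esam at 0.617 against -0.758. The difference between the groups was not tested. Eng and Egfl7 have like GC content (57.4% and 57.1%) and like length (4048 and 3581 bases). Their r with the length slope of the libraries nevertheless had opposite signs, 0.870 for Eng and -0.732 for Egfl7. Why they moved against each other was not tested.

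Fewer pairs passed when the libraries that stood apart were corrected or left out. After correction for length and GC content 17 pairs passed, 16 above 0 and 1 below, and the median r of the 28 pairs was 0.633. Without heterozygous mice 6 and 7, 10 pairs passed and that median was 0.537. All 10 also passed after the correction, among them Eng with Egfl7, Pecam1 with Esam (r = 0.841 after the correction and 0.865 without these mice), Pecam1 with Cdh5 (0.622 and 0.688) and Flt1 with Vwf (0.725 and 0.702). Within the 10 heterozygous mice the median was 0.850 and 27 pairs passed, and within the 6 wildtype mice it was 0.393, 5 of the 28 had r below 0 (Eng with Esam at -0.748) and 0 pairs passed. The other 6 are the pairs among Cdh5, Kdr, Flt1 and Tek, with r of 0.702 to 0.916 and 0.698 to 0.905. In all 16 mice Vwf had its highest r with Flt1 (0.914). With Cdh5 its r was 0.844, 0.468 after the correction and 0.503 without mice 6 and 7, past the threshold in the first setting only. Cages held too few mice (3 to 5) for a correlation within each.

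**Figure D3:**
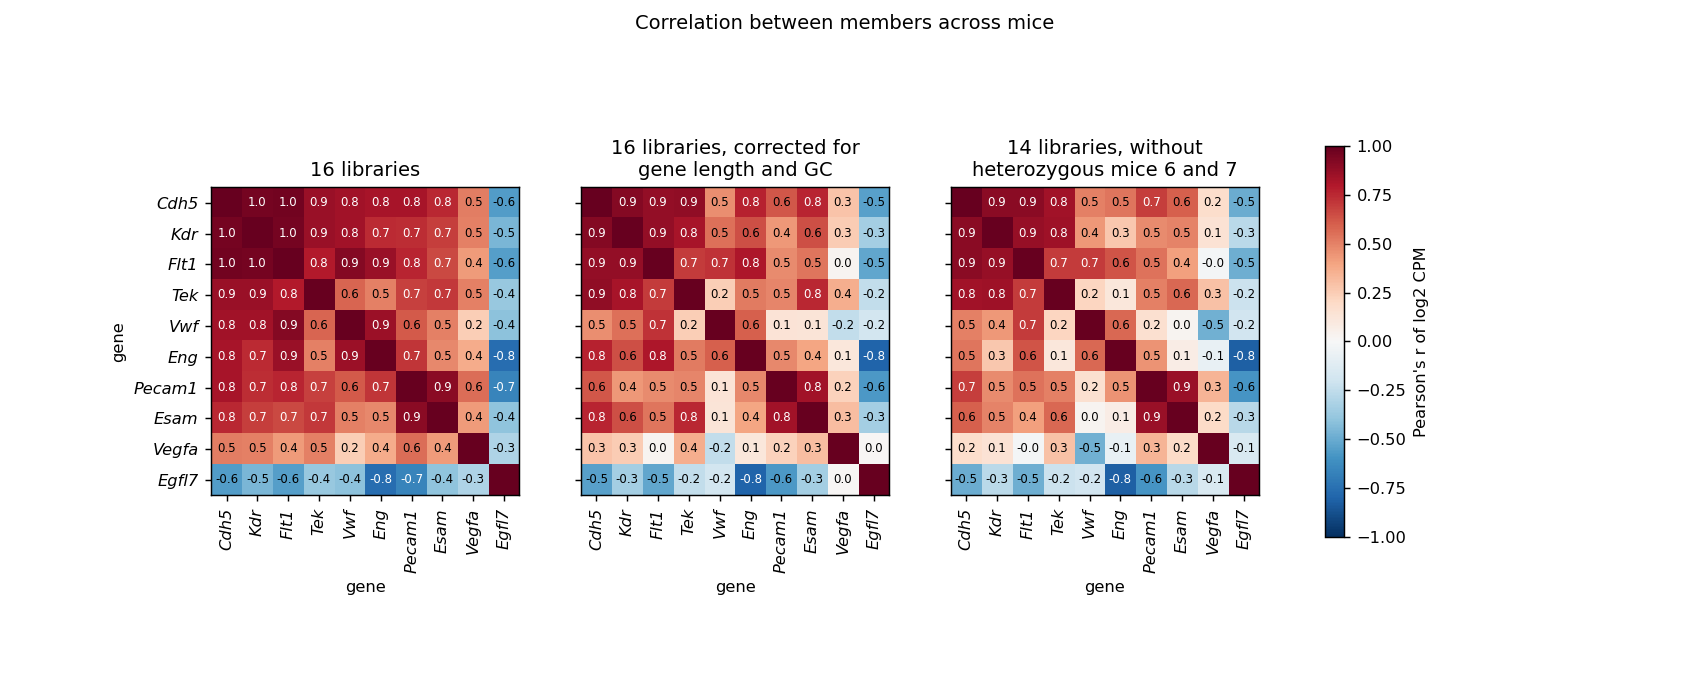
Pearson's r of log2 CPM between members (both axes list the genes, colour and printed value give r) in all 16 libraries, in 16 libraries corrected for gene length and GC content, and in 14 libraries without heterozygous mice 6 and 7. The block of Cdh5, Kdr, Flt1 and Tek remains between 0.698 and 0.916 in the corrected and reduced panels, and Egfl7 stays below 0 with Eng in each panel (-0.762, -0.802 and -0.818).

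The members followed the length slope of the libraries. Of 10 relations tested, Pearson's r with the length slope was 0.968 for Cdh5 (rho 0.971), 0.940 for Flt1 (rho 0.865), 0.926 for Kdr (rho 0.876) and -0.732 for Egfl7 (rho -0.747), with adjusted permutation p of 5e-05, 5e-05, 6.67e-05 and 0.00211. All 10 passed the adjusted threshold by r and 8 by rho (Vegfa and Vwf did not), where 59.7% of all genes tested had an unadjusted permutation p under 0.05 for r with the slope. Without heterozygous mice 6 and 7, the 2 farthest on this scale, r was 0.924 for Cdh5, 0.842 for Flt1, 0.801 for Kdr and -0.765 for Egfl7, but 0.250 for Vegfa and 0.378 for Vwf. This was not particular to the members: 11.2% of the other 14330 genes tested had r over 0.8 with Cdh5 and 11.4% had r under -0.8. The former had a median length of 7888 bases and the latter of 2563 bases, against 4197 bases over all genes. After the correction, 4.76% of genes had r over 0.8 with Cdh5, and without heterozygous mice 6 and 7, 4.18%. Of the 9 other members, 6 had r over 0.8 with Cdh5, 3 after the correction and 3 without mice 6 and 7. What set the slope was not tested.

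**Figure D4:**
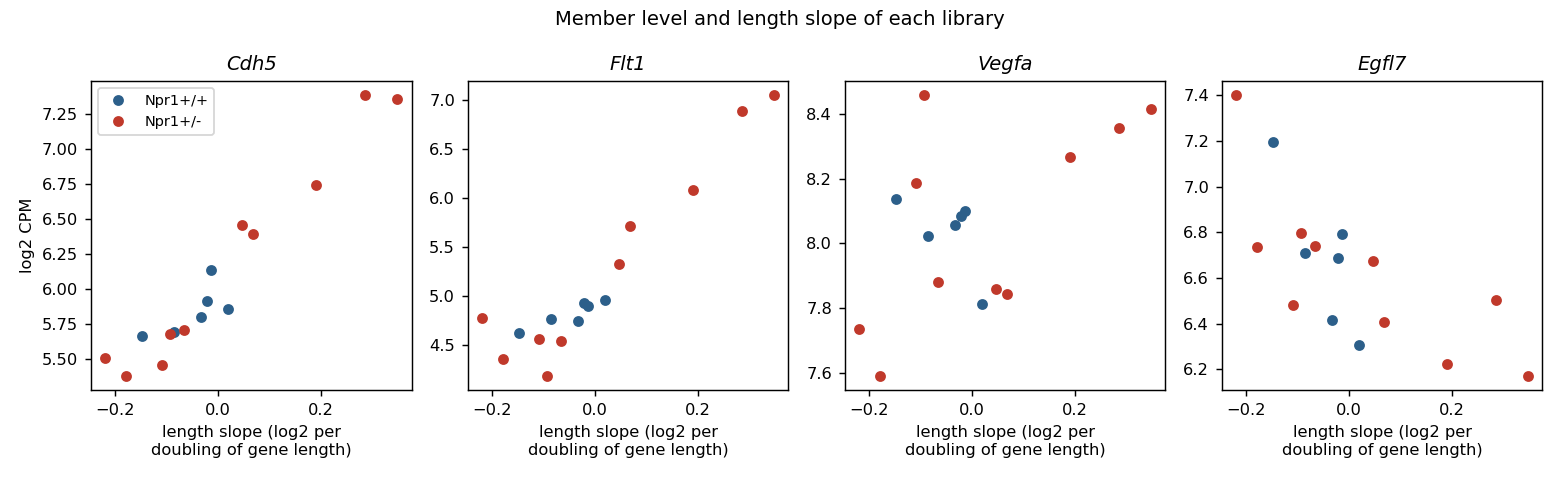
log2 CPM of Cdh5, Flt1, Vegfa and Egfl7 (vertical axes) against the length slope of each library (horizontal axes), with libraries labelled wildtype in blue and heterozygous in red. Cdh5 and Flt1 rise along the slope (r = 0.968 and 0.940), Egfl7 falls (r = -0.732), and the 2 points farthest to the right are heterozygous mice 6 and 7.

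Per length, the ligand was the most abundant member and Vwf the least. On the scale of CPM per kilobase of gene length (RPKM), geometric means over the 16 mice were 61.9 for Vegfa, 27.9 for Egfl7, 15.99 for Cdh5, 10.9 for Pecam1, 10.6 for Esam, 9.23 for Eng, 4.49 for Tek, 2.89 for Kdr, 2.62 for Flt1 and 0.705 for Vwf. Of the 9 neighbouring pairs in this order, 6 differed across mice (exact permutation test over all sign flips, two-sided, adjusted over 9). Vegfa was above Egfl7 in 16 of 16 mice by a log2 difference of 1.15, and Flt1 above Vwf in 16 of 16 by 1.90, both with an adjusted exact p of 6.87e-05. Pecam1 and Esam (adjusted exact p = 0.674, Pecam1 higher in 7 of 16), Esam and Eng (0.104) and Kdr and Flt1 (0.0583, Kdr higher in 11 of 16) did not differ beyond their spread. Leaving out 1 mouse at a time gave 6 or 7 pairs, and without heterozygous mouse 7 Esam came above Pecam1, with no other change of order in these fits. The order rests on the division by length: on the scale of CPM 5 neighbouring pairs passed, with Pecam1 above Cdh5, Flt1 above Esam and Kdr above Tek. Egfl7 was above Cdh5 in 13 of 16 mice, a mean log2 difference of 0.80 with an SD of 0.86.

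**Figure D5:**
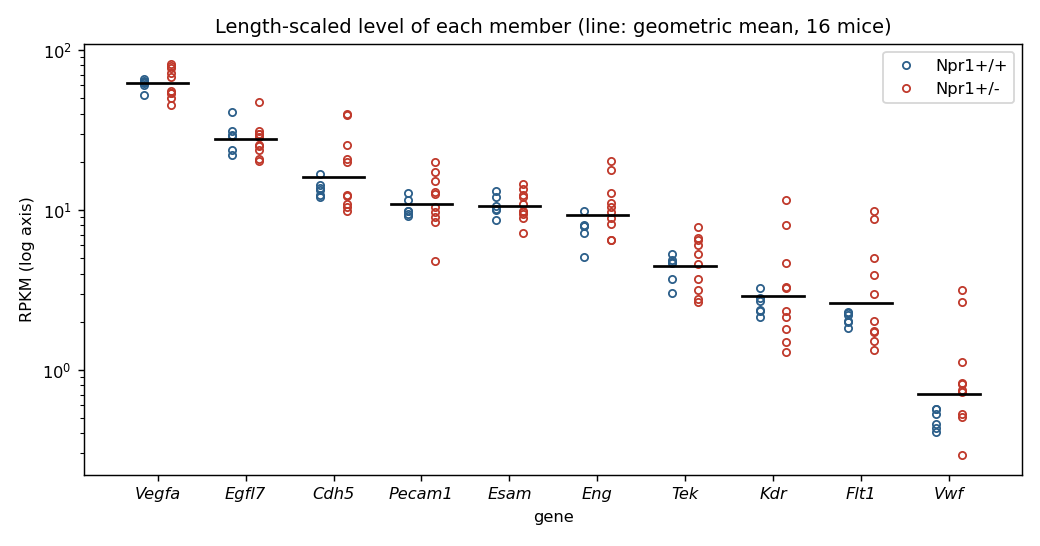
RPKM of each member on a log axis, one point per library (blue for wildtype, red for heterozygous labels), with the geometric mean over 16 mice as a black line. The members fall from Vegfa (61.9) to Vwf (0.705), and Kdr and Flt1 (2.89 and 2.62) overlap.

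Related genes were read from lists fixed by function. Among the 30 other endothelial genes, 22 had a log2 difference above 0 between genotype labels, 0 passed the adjusted and 0 the unadjusted threshold, and the median was 0.09. S1pr1, the receptor for sphingosine 1-phosphate, had the smallest p of those above 0 (0.26, SE 0.18) and Aplnr, the apelin receptor, of those below (-0.21, SE 0.18). These genes did not follow Cdh5 as a block: r over 16 mice was above 0 for 19 of 30, against 51.4% of all genes. It was over 0.8 for 6 of 30, against 11.2%, among them Robo4 (0.934), Ptprb, the phosphatase that opposes TIE2 (0.928), and Podxl (0.923), while Cd34 stood at -0.898. After the correction for length and GC content 6 of 30 were over 0.8 (4.76% of all genes), and without heterozygous mice 6 and 7, 3 of 30 (4.18%). Their summed level was 832 to 1034 CPM in the heterozygous and 822 to 945 CPM in the wildtype libraries.

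In the VEGF, angiopoietin and Notch pathway, 15 of 20 genes were above 0 and 0 passed either threshold, with a median of 0.11. Hey1, a target of Notch signaling, had the smallest p above 0 (0.53, SE 0.28), and Vegfb, a ligand of FLT1 and the most abundant of the list at 175 CPM, the smallest below it (-0.18, SE 0.16). Here 9 of 20 had r over 0.8 with Cdh5, against 11.2% of all genes, and 5 of 20 after the correction for length and GC content against 4.76%. Without heterozygous mice 6 and 7 it was 3 of 20 against 4.18%. Notch1 (r = 0.939), its ligand Jag1 (0.891), the TIE2 partner Tie1 (0.919) and the VEGFR2 effector Plcg1 (0.932) were among the 9, and without mice 6 and 7 Jag1 was at 0.661. Nrp2, also among the 9 at 0.877, stood at 0.407 after the correction. In all, 17 of 20 had r above 0. Angpt1, an angiopoietin gene, stood at -0.724, at -0.633 after the correction and at -0.417 without mice 6 and 7. Pgf (-0.403) and Vegfb (-0.278) were also below 0 in all 16 mice. In the endoglin and BMP pathway 14 of 17 genes were tested (Gdf2, Bmp10 and Smad9 were not), 10 were above 0, 0 passed, and the median was 0.06. Id3, a target of this pathway, stood at 0.30 (SE 0.17) and Tgfb1 at -0.20 (SE 0.24). With Cdh5, 2 of 14 had r over 0.8 (11.2% of all genes), 0 of 14 after the correction (4.76%) and 0 of 14 without mice 6 and 7 (4.18%). Bmpr2, the type II receptor, was the most abundant at 136 CPM and differed by 0.07 (SE 0.21). Of 12 hypoxia genes and regulators of Vegfa, 4 were above 0 and 0 passed. Vhl, which marks HIF for breakdown, stood at 0.12 (SE 0.20), Pdk1 at -0.10 (SE 0.13) and Egln1, an oxygen sensor, at -0.08 (SE 0.16). Their r with Cdh5 ran both ways, from 0.900 for Arnt and 0.860 for Epas1, the HIF-2α gene of endothelium, to -0.867 for Esrra. After the correction 0 of 12 were over 0.8 (4.76% of all genes), with Arnt at 0.610, Epas1 at 0.791 and Esrra at -0.842. Without mice 6 and 7 these stood at 0.755, 0.723 and -0.707.

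Markers of other cells varied with Cdh5 or against it, and their part in the results was not tested. Of 12 mural cell markers, all tested, 8 were above 0 between labels with 0 past either threshold (Notch3 0.25, SE 0.37, and Des, shared with muscle fibers, -0.15, SE 0.23). Their summed level was 3215 to 6515 CPM in the heterozygous and 3187 to 5755 CPM in the wildtype libraries. Most of it was Des, with a mean of 3474 CPM over the 16 mice against 4637 CPM for the sum. With Cdh5, 5 of 12 had r over 0.8, against 11.2% of all genes, up to 0.951 for Pdgfrb. In all, 7 of 12 were above 0, and Rgs5, a pericyte gene, stood at -0.744 and Tagln, of smooth muscle, at -0.691. Of all genes, 51.4% had r above 0 with Cdh5 and 47% after the correction, shares that also apply to the lists below. After the correction 4 of 12 were over 0.8 (4.76% of all genes), and without mice 6 and 7, 3 of 12 (4.18%), with Pdgfrb at 0.886 and 0.859 and Rgs5 at -0.516 and -0.397. Of 6 macrophage markers, 2 were above 0 and 0 passed, with sums of 27.8 to 91.1 against 44.3 to 79.6 CPM, and 0 of 6 had r above 0 with Cdh5, also after the correction and without mice 6 and 7. Of the erythrocyte markers 5 of 7 were tested and all 5 were above 0 (48.4% of all genes), with Hbb-bt (0.79, SE 0.32) and Alas2 (0.54, SE 0.25) at an unadjusted p under 0.05 (1.05% of all genes) and 0 past the adjusted threshold by edgeR's quasi-likelihood test. Their sums were 88.1 to 510 against 192 to 320 CPM, and their r with Cdh5 was above 0 for 0 of 5, 1 of 5 after the correction and 0 of 5 without mice 6 and 7. Platelets carry von Willebrand factor protein, and of 8 platelet markers only Itga2b, Gp1ba and Pf4 passed the filter, with sums of 6.06 to 9.64 against 7.57 to 10.01 CPM. Of these 1 was above 0 and 0 passed, and their r with Cdh5 ran both ways. It was -0.889 for Pf4, -0.769 after the correction and -0.926 without mice 6 and 7, whereas Gp1ba stood at 0.590, 0.597 and 0.566 and Itga2b at -0.00265, -0.385 and -0.218.

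No marker of these cell types was at 0 in all libraries. Lymphatic markers (5 of 6 tested, 4 above 0, 0 passed) summed to 9.02 to 21.1 against 11.5 to 18.2 CPM. Reln stood at 0.61 (SE 0.47), Lyve1 at -0.18 (SE 0.26) and Pdpn, the most abundant, at 0.02 (SE 0.22). Of 6 fibroblast markers 5 were above 0 and 0 passed, with sums of 796 to 1805 against 930 to 1361 CPM, and their r with Cdh5 ran from -0.885 for Lum to 0.558 for Pdgfra, 3 of 6 above 0. After the correction these stood at -0.776 and -0.657 and without mice 6 and 7 at -0.681 and -0.117, with 0 of 6 above 0 in both settings. Of 6 adipocyte markers 1 was above 0 and 0 passed, with sums of 34.3 to 431 against 97.6 to 349 CPM. Of 10 fast fiber genes 2 were above 0 and 0 passed, with sums of 115700 to 190403 against 119930 to 180169 CPM, and the myosin heavy chains Myh4 and Myh1, whose transcripts are long, had r of 0.907 and 0.905 with Cdh5, while Pvalb (-0.902) and Mylpf (-0.899) had r below 0. These 4 are the extremes: 4 of 10 had r above 0, the median was -0.12, and Tnnt3 (-0.0629), Tnnc2 (0.0544) and Acta1 (-0.177) lay near 0. The 4 stood at 0.853, 0.857, -0.802 and -0.802 after the correction and at 0.757, 0.783, -0.821 and -0.810 without mice 6 and 7. Among the 9 slow and oxidative fiber genes, 4 were above 0 and 0 passed, with sums of 5170 to 14963 against 6257 to 11395 CPM, and Myh2, the myosin of type 2A fibers, had r = 0.946, 0.916 after the correction and 0.855 without mice 6 and 7. Their r was above 0 for 5 of 9, and Mb, which encodes myoglobin and was the most abundant, stood at -0.799, -0.629 and -0.520.

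The genes outside the members whose log2 CPM was most like the mean standardized level of the 9 members other than Vegfa, by Pearson's r over 16 mice, were Polr1a (0.985), Gbf1 (0.982), Epg5 (0.978), Ubr2 (0.975), Ccm2l (0.974), Limch1 and Chd8 (0.973 each), Uggt1, Atg2b and Map4 (0.971 each). With the exception of Ccm2l, at 2407 bases, each had 9814 bases or more. After the correction for length and GC content, Epg5 (0.967), Gm17201 (0.958), Shank3 (0.956), Limch1 (0.954) and Tbx4 (0.952) came first, and Polr1a, Ccm2l and Ubr2 were still among the first 10. Those most like Vegfa were Rassf4 (0.876), C2cd2 (0.828), Ythdf1 (0.825), Ap3b1 (0.821) and Rnf144b (0.818), and after the correction Impact (0.863), Trappc13 (0.845), Lifr (0.834), Slc38a2 (0.827) and Slc16a1 (0.825).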

How the data were processed

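Skeletal muscle mRNA of 16 mice was sequenced in paired 52-base reads. The authors mapped reads with STAR 2.7.2b and counted them per gene with featureCounts 1.6.4 (submitters' processing notes, build GRCm38), and deposited raw counts with each gene's position and length in bases. The labels and the methods name different library kits, and the study's methods give another version of featureCounts than the submitters' notes. The strand setting is not given in the sources used here. Symbols were matched for 55144 of 55471 genes. Genes were filtered by edgeR's filterByExpr, scaled by TMM and tested with the quasi-likelihood test of edgeR 4.0.16 (R 4.3.3), with genotype label, cage and body weight, as the study's methods state, and Benjamini-Hochberg adjustment over all genes at 0.05. Normalization used total counts of 15273472 to 59682677, where 3 counts, the floor used, equal 0.0493 to 0.219 CPM; this covers counting error only. RPKM is CPM per kilobase of deposited gene length. log2 CPM used a prior count of 2. Correction for length and GC content fitted splines (5 degrees of freedom each) to each library and was chosen after seeing the data, as was leaving out heterozygous mice 6 and 7. Alternatives were other covariates, scalings and filters, DESeq2 1.42.0, limma 3.58.1, and leaving out each mouse. The genes named were all members, Npr1, the smallest p in each direction and the most abundant of each list, and the genes most like the members. Not all of these are printed for the erythrocyte, macrophage, fibroblast, adipocyte and slow fiber lists. Others named for r with Cdh5 were picked after their values were seen. The members and lists were chosen with earlier results of these data known. Nothing says how RNA preparations were grouped beyond 1 library per mouse.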

Additional observations from a re-analysis of the deposited data

Results flagged for a closer look

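Of 30 groups of values examined for a sample far from the others, 3 were picked out, where chance gives about 1 in 20 (1.5 of 30). Wildtype mouse 3 was lowest for Vegfa in its group, with a log2 CPM of 7.81 against 8.02 in the nearest of the other 5. Heterozygous mouse 9 was highest for Egfl7 in its group, with a log2 CPM of 7.40 against 6.80 in the nearest of the other 9. Heterozygous mouse 5 had 59682677 total counts, the next in its group 23819345, so its member values rest on more reads than the others.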

How the results depend on the processing

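The members' result for the genotype label, 0 of 10 past the adjusted threshold, held in each alternative run, as did 0 genes of the related lists. The count over all genes was 6 by DESeq2, 8 with no filter on low counts, 2 without heterozygous mice 6 and 7, and 0 to 3 on leaving out 1 mouse at a time (3 without wildtype mouse 3 and 2 without heterozygous mouse 6). The sign of small log2 differences turned. That of Vegfa was 0.050 with the label alone, 0.090 with cage as the only covariate, 0.0017 with RLE size factors, 0.0017 by DESeq2, 0.0027 with no filter and 0.0067 with a filter of 1 CPM in 6 libraries. That of Egfl7 was -0.060 with the label alone and -0.099 with cage only, and Tek and Esam stood at -0.020 and -0.025 with body weight only. Leaving out 1 mouse at a time gave -0.061 to 0.20 for Pecam1, -0.31 to 0.39 for Kdr, -0.019 to 0.69 for Flt1, -0.12 to 0.35 for Tek, -0.097 to 0.073 for Vegfa, -0.030 to 0.13 for Esam, 0.25 to 1.09 for Vwf, 0.019 to 0.56 for Cdh5, 0.015 to 0.40 for Eng and 0.0022 to 0.19 for Egfl7.

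For body weight, 0 genes passed in all mice and 0 to 3158 on leaving out 1 mouse at a time, the upper count being without heterozygous mouse 3 and all others 0. The slope of Tek was 0.0028 per g without heterozygous mouse 7, the range over all mice left out in turn being -0.059 to 0.0028, and 0.0066 without mice 6 and 7, where that of Esam was 0.0018. For cage, 4 genes passed in all mice, 1 with upper-quartile scaling, 1 by limma, 1 with the 1 CPM filter, 10 after the length and GC correction, 23 with no filter, 78 by DESeq2, and 0 to 869 on leaving out 1 mouse (869 without heterozygous mouse 3), with 0 members in the fit of all mice. Pairs of members past the threshold numbered 17 after the length and GC correction and 10 without mice 6 and 7, against 30, and 25 to 35 on leaving out 1 mouse. The cause of these changes was not tested.

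Mice of both labels share replicate numbers 1 to 6, but these are different animals, most of them in different cages, and the labels give the number no further meaning. Deviations of same-numbered mice had a mean r of 0.0779 over 6 pairs (0.0328 to 0.17), against -0.00816 over 54 others. Heterozygous mice 7 to 10 share their numbers with no other mouse, so in a fit with this block they add nothing to the estimates. The estimates then rest on the 6 same-numbered pairs. With the replicate block in place of cage, 2 genes passed for the genotype label and 1 for body weight, with 0 members in either. Vegfa was then at 0.028 and Egfl7 at -0.21, and Vwf, Flt1, Eng and Cdh5 at 1.01, 0.63, 0.62 and 0.50 against 0.63, 0.28, 0.19 and 0.26. The weight slopes were 0.038 for Vwf, 0.0086 for Eng, -0.0074 for Egfl7, -0.017 for Flt1, -0.0037 for Cdh5 and -0.00058 for Kdr, against -0.14, -0.09 and -0.13 for the last 3. With the block and the length and GC correction together, 4 and 3 genes passed, Egfl7 was at -0.33, and the slopes were 0.043, 0.0091 and -0.0060. The block changed no member's call at the adjusted threshold. At an unadjusted p of 0.05 the members lower in heavier mice went from 4 to 0 and those that differed by genotype label from 0 to 2 (Vwf and Eng). These shifts also reflect the mice that drop out of the estimates, mouse 7 among them, and the parts of block and mice were not told apart.

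Depth limits Vwf most, with 79 counts in its lowest library. With 10 and 6 mice, log2 differences well inside the intervals given could not be shown.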
